A study of Mus musculus with 23 samples.

Results

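The genes Dbp, Tef, Hlf, Nfil3, Ciart, Bhlhe40, Bhlhe41, Usp2 and Rora are outputs or side branches of the circadian clock, and their RNA was followed in the colonic epithelium of mice on 3 diets. They were taken by gene symbol, and all 9 stand once each among the 24917 gene loci counted. All of them encode regulators of transcription except Usp2, which encodes a protease that removes ubiquitin, so the name "transcription factors" does not hold for it. Male C57BL/6 mice (C57BL/6J in the study's methods) entered the diets at 6 weeks of age and were kept on them for 43 weeks. The LF group ate food with 10% fat throughout, the HF group food with 60% fat throughout, and the HF-LF group (HFLF in the labels) the 60% food for 15 weeks and then the 10% food for 28 weeks. No gene was altered in any group, and lard was the source of fat in both diets. The 23 samples carry a batch label, with 4 LF, 3 HF and 4 HF-LF samples in batch 1 and 4 LF, 3 HF and 5 HF-LF samples in batch 2. The study's methods give fewer mice per diet than the batches hold together, so some mice may have been sampled more than once, and p-values measure only the spread between these samples. The hour at which colons were collected is not given in the sources used here.

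The clock of mammalian cells is a feedback loop in which the activators CLOCK and BMAL1 (encoded by Arntl) bind E-boxes and drive the genes of their own repressors, the PER and CRY proteins. DBP, TEF and HLF, the PAR bZIP activators, and NFIL3, a repressor, compete for the same D-boxes and so pass the rhythm on to many metabolic and detoxification genes. CIART, BHLHE40 and BHLHE41 repress transcription driven by CLOCK and BMAL1, whereas RORA, a nuclear receptor, activates Arntl through ROR elements that the REV-ERB receptors (Nr1d1 and Nr1d2) occupy as repressors. Most of these RNAs rise and fall over the day in peripheral tissues, including the gut, so that 1 sample shows a level at 1 unknown phase.

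Promoter windows are shown for the genes in which the E-box, the site of CLOCK and BMAL1, was found. In batch 1 Ciart and Tef were lower without overlap under HF feeding, as were Dbp and Usp2, whose windows held no E-box. Bhlhe41, which has an E-box, had a higher value there (log2 fold change 0.17). A link between the E-box and the diet differences was not tested. The windows come from RefSeq on GRCm38.p6 (mm10), run from 250 bases before to 50 bases after a gene's start and read 5′ to 3′ along the gene. They were matched by symbol for 8 of the 9 genes, Bhlhe40 being the exception. In the lines below the E-box CACGTG, which reads the same on both strands, is in capitals.
Ciart, chr3:95882179-95882478, minus strand: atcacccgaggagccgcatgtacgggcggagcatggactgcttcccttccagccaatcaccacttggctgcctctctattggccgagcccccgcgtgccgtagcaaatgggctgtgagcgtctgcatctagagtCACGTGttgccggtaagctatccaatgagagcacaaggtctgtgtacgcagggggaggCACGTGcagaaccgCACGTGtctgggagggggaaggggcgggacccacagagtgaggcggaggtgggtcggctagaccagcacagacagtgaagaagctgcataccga
Tef, first start, chr15:81802423-81802722, plus strand: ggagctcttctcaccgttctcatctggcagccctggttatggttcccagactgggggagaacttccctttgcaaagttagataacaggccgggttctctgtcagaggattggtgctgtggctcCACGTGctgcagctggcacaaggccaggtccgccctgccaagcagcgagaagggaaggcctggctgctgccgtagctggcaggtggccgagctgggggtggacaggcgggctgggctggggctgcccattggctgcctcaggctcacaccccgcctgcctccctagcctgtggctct
Tef, second start, chr15:81811164-81811463, plus strand: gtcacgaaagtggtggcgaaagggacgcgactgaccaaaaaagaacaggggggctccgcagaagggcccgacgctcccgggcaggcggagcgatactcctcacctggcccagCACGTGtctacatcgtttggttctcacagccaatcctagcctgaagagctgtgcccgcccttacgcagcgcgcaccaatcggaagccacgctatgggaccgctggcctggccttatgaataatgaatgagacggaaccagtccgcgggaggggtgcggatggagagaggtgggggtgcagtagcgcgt
Bhlhe41, chr6:145865371-145865670, minus strand: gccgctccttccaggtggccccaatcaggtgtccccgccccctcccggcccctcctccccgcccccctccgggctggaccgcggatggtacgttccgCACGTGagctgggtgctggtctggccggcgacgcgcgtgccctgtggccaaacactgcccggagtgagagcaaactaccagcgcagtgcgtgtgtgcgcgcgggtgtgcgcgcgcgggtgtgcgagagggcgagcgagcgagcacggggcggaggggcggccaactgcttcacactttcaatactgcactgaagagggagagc

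The Ciart window held 3 E-boxes, which begin at -116, -58 and -44 from the start. Among 32851 promoter windows of the same length 29 (0.0883%) held 3 or more, and 7.15% held at least 1. Each Tef window held 1, at -127 and at -138, and the Bhlhe41 window held 1 at -153. A cyclic AMP element (TGACGTCA, in 1.79% of windows) lay at -9 of Hlf. The end of the Hlf window, past the start, was found in no GENCODE transcript of the gene, unlike that of the other windows. The D-box TTANGTAA (2.32% of windows) and the ROR element TNAGGTCA (4.58%), searched on both strands, were in none of the members' windows, and none of the motifs lay in those of Dbp, Nfil3, Usp2 and Rora. The 1 window of Usp2 (chr9:44084670-44084969) belongs to a start inside the counted locus, which begins at 44067021 on the plus strand. The outer start of Usp2 was thus not searched. These matches describe letters in a window and not binding, and sites outside the windows, such as in introns, were not searched.

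The genes spanned more than 3 orders of magnitude in level. Per kilobase of exon, LF mice of batch 1 had 75.7 ± 5.18 CPM (read counts after TMM scaling to equal library totals; SD, n = 4) of Bhlhe40 and 71.7 ± 12.9 of Dbp, whose ranges overlapped. Tef followed with 45.1 ± 4.24 and Usp2 with 13.6 ± 1.76, and the ranges of Dbp, Tef and Usp2 were apart from each other. Ciart had 9.72 ± 1.46, Nfil3 1.94 ± 0.437 and Rora 0.261 ± 0.0314, again without overlap. Hlf (0.0481 ± 0.0321) and Bhlhe41 (0.0462 ± 0.0178) were lowest and overlapped. In LF mice of batch 2 the order was the same down to Rora, and Bhlhe40 (76.2, from 62.4 to 82.4) and Dbp (52.1, from 44.3 to 62.8) overlapped narrowly there. Hlf was counted with 0 to 22 reads per sample and Bhlhe41 with 5 to 26. A gene with 3 reads stands at 0.0459 to 0.103 CPM at these depths, a floor that covers counting error only, so diet differences of these 2 genes were not detectable unless very large. Strand use in counting is not given in the sources used here, so reads from overlapping antisense transcripts could not be separated.

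**Figure D1:**
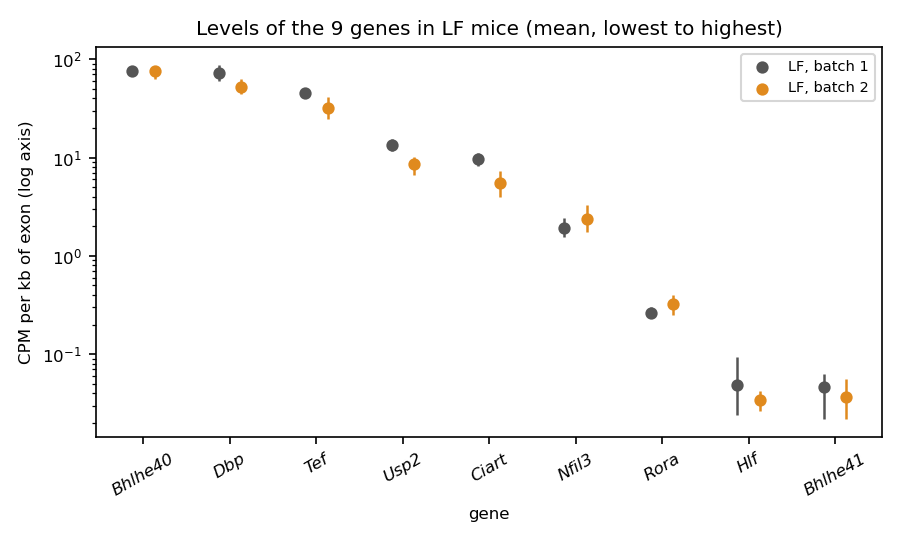
Mean level per kilobase of exon (log axis) of each gene in LF mice, with a line from the lowest to the highest of 4 samples, for each batch. Bhlhe40, Dbp and Tef stand at the top, and Hlf and Bhlhe41 lie near 0.05 CPM per kilobase.

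One library stood apart from the rest. It was singled out after seeing the data, and Dbp, by which it stood out, is itself 1 of the genes compared. In HF replicate 3 of batch 1, Dbp was at 18.2 CPM, the lowest of all 23 samples, with the next lowest at 77.4. In the same sample the glucocorticoid-responsive genes Fkbp5 and Sgk1 were at 543 and 782 CPM, against 141 to 220 and 194 to 404 in the other samples of batch 1. Its summed markers of fibroblasts (2.25 CPM), smooth muscle (0.383), endothelium (1.53) and macrophages (0.992) were also the lowest of batch 1. Those of lymphocytes (21.7 CPM) were not, and lay within the 9.84 to 23.9 CPM of the other samples of batch 1. Where leaving it out ended a call or moved a value by over 1.5 times, the value without it is given as well. Marker genes of colonic epithelium summed to 23851 to 40212 CPM in all samples, whereas those of fibroblasts reached at most 38.9 CPM and those of adipocytes at most 0.306 CPM. The total count per sample ran from 29189922 to 46498521 in batch 1 and from 31607019 to 65320947 in batch 2.

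**Figure D2:**
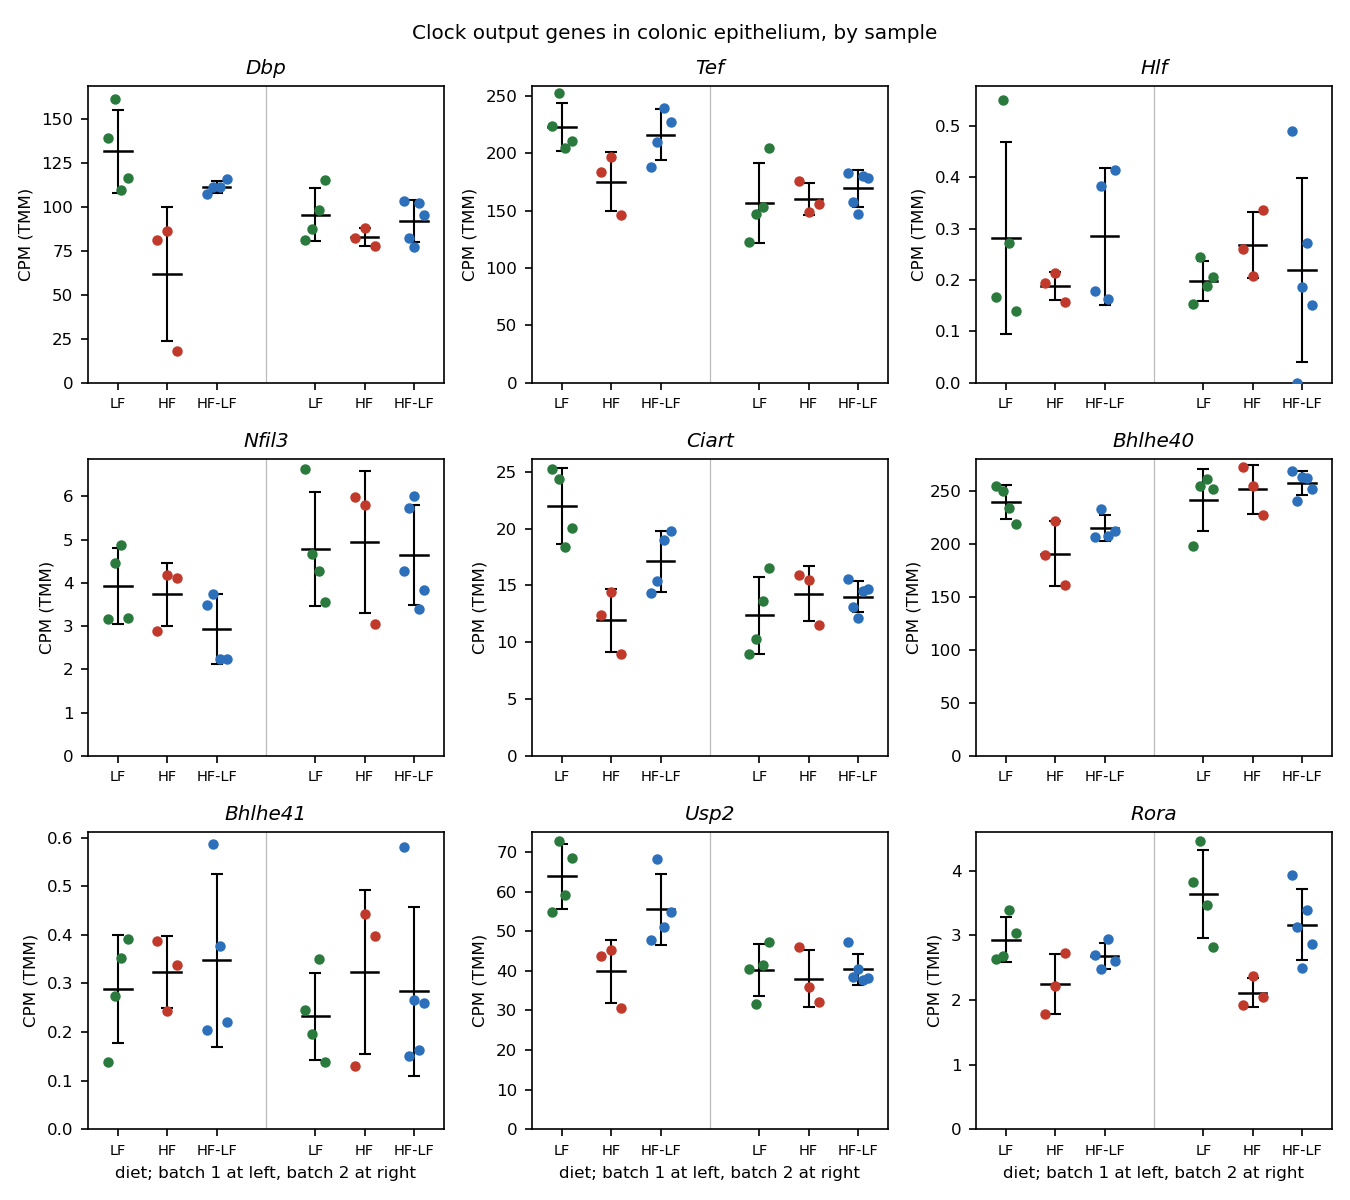
Level of each gene (CPM after TMM scaling within a batch) in every sample, by diet, with batch 1 at the left and batch 2 at the right of each panel; points are samples, and bars show the mean and SD. Dbp, Ciart, Tef and Usp2 of HF mice lie below all LF mice in batch 1 and overlap with them in batch 2, whereas Rora of HF mice lies below all LF mice in batch 2.

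The first comparison asked what lifelong high-fat feeding did to these genes. In batch 1, 8 of the 9 genes had lower values in HF than in LF mice, with a median log2 fold change of -0.39 against -0.00 over all 14428 genes tested. None passed the thresholds (a fold change above 1.2 and a p under 0.05 in edgeR's quasi-likelihood test after Benjamini-Hochberg adjustment), and of all genes 0% did. At an unadjusted p under 0.05 there were 5 of 9, all lower, against 10.2% of all genes in that direction. The ranges of HF and LF mice did not overlap for 4 of 9 genes, all lower in HF, against 7.33% of all genes. Without HF replicate 3, 4 of 9 were lower at an unadjusted p under 0.05 (4.44% of all genes), and 5 of 9 did not overlap (9.4%), Rora being added.

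Among the PAR bZIP activators, Dbp was at 139, 162, 109.5 and 116 CPM in LF mice of batch 1. In HF mice it was at 80.9, 86.5 and 18.2 CPM. All HF samples thus lay below all LF samples, and replicate 3 far below the rest. The log2 fold change was -1.09 (SE 0.37, adjusted p = 0.166), and without HF replicate 3 it was -0.65 (adjusted p = 0.522). The variation of Dbp between samples of a group (biological coefficient of variation 0.324) was higher than that of 93.3% of genes in batch 1, and it was 0.112 in batch 2. Tef had 205 to 252 CPM in LF mice and 184, 197 and 146 CPM in HF mice, which lay below all LF samples. Its log2 fold change was -0.35 (SE 0.12, adjusted p = 0.168), and without HF replicate 3 it was -0.22 (adjusted p = 0.551). Hlf had a log2 fold change of -0.55 (SE 0.54), and its groups overlapped.

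Among the repressors, Ciart showed the smallest p of the 9 genes. It had 25.2, 24.3, 18.4 and 20.04 CPM in LF mice of batch 1 and 12.4, 14.5 and 8.99 CPM in HF mice, with no overlap. The log2 fold change of -0.88 (SE 0.18) had an unadjusted p of 0.00026 in edgeR's test and an adjusted p of 0.137, and without HF replicate 3 it was -0.71. Bhlhe40 had 219 to 255 CPM in LF mice and 189.7, 222 and 162 CPM in HF mice, so that 1 HF sample reached into the LF range (-0.33, SE 0.11, adjusted p = 0.166). Without HF replicate 3 the value for Bhlhe40 was -0.21 (adjusted p = 0.548). Nfil3, which opposes the PAR bZIP activators at D-boxes, had 3.16 to 4.88 CPM in LF mice and 2.89 to 4.19 in HF mice (log2 fold change -0.07, SE 0.25, and -0.15 without HF replicate 3). Bhlhe41 was the 1 gene with a higher value in HF mice (0.17, SE 0.45), and its groups overlapped.

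Usp2, the protease, had 54.8, 72.9, 59.2 and 68.6 CPM in LF mice and 43.7, 45.3 and 30.7 CPM in HF mice of batch 1. All HF samples were lower, and the log2 fold change was -0.68 (SE 0.16, adjusted p = 0.137), or -0.51 without HF replicate 3. Rora had 2.63 to 3.39 CPM in LF mice and 1.79, 2.22 and 2.73 CPM in HF mice, with 1 HF sample inside the LF range (-0.39, SE 0.19, adjusted p = 0.242). That sample was replicate 3, and without it the value for Rora was -0.55 (adjusted p = 0.548). The calls of batch 1 depended on the tool, since DESeq2 called 2 of the 9 genes (Ciart and Usp2) and limma voom with sample weights 6, all of them lower. Over all genes DESeq2 called 199 of 13358 lower, and voom with sample weights 1262 of 14428. Leaving out HF replicate 2 raised edgeR's count from 0 to 4 (Bhlhe40, Ciart, Dbp and Usp2), and the calls over all genes rose with it from 0 to 1352.

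In batch 2 the pattern was another one. Rora alone of the 9 genes was past the thresholds, lower in HF than in LF mice, against 4.4% of all genes called lower. It had 3.82, 4.46, 3.47 and 2.82 CPM in LF mice and 1.93, 2.37 and 2.05 CPM in HF mice, without overlap, as was the case for 13.5% of all genes in that direction. The log2 fold change was -0.79 (SE 0.18, adjusted p = 0.0310 in edgeR's test). In the same samples the markers of fibroblasts summed to 6.96 to 26.6 CPM in LF and 3.23 to 11.9 CPM in HF mice, and those of smooth muscle to 4.37 to 24.6 and 0.624 to 3.79 CPM. Of these markers, 4 of 4 and 3 of 3 had lower values in HF mice, none past the thresholds, and their part in the result for Rora was not tested. Fewer cells of a type and less RNA per cell cannot be told apart in such bulk samples. The call of Rora was lost when any of LF replicates 1, 2 and 3 or any HF replicate was left out, with log2 fold changes from -0.90 to -0.67.

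The other 8 genes showed no call in batch 2, and the median of all 9 log2 fold changes was 0.04. Dbp had 81.4, 87.5, 98.5 and 115 CPM in LF mice and 82.4, 88.02 and 77.7 CPM in HF mice, which overlapped (-0.21, SE 0.12, adjusted p = 0.222). Ciart, at 8.99 to 16.5 CPM in LF and 11.5 to 15.9 CPM in HF mice, had a log2 fold change of 0.20 (SE 0.17, adjusted p = 0.429). Tef (0.03, SE 0.13), Usp2 (-0.08, SE 0.13) and Bhlhe40 (0.06, SE 0.09) differed by less than their standard errors. Nfil3 (0.04, SE 0.26), Hlf (0.45, SE 0.56) and Bhlhe41 (0.50, SE 0.50) overlapped between the diets.

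The difference between the batches was itself tested as an interaction of batch and diet. No member had an adjusted p under 0.05, as did 0 of 14385 genes, in edgeR's test. At an unadjusted p under 0.05 the HF against LF difference was higher in batch 2 for 4 members, against 2.45% of all genes in that direction. The log2 fold change of Ciart was higher in batch 2 by 1.08 (SE 0.27, adjusted p = 0.688 in edgeR's test), with an unadjusted p of 0.000509. For Dbp the shift was 0.88 (SE 0.41), for Usp2 0.59 (SE 0.22) and for Bhlhe40 0.38 (SE 0.14). Without HF replicate 3 of batch 1 the shift was 0.93 for Ciart (SE 0.27), 0.46 for Dbp (SE 0.19), 0.45 for Usp2 (SE 0.21) and 0.30 for Bhlhe40 (SE 0.14).

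Over both batches, with batch as a covariate, 3 of the 9 genes were called lower in HF than in LF mice, against 9.11% of all genes called lower. Rora had a log2 fold change of -0.59 (SE 0.13, adjusted p = 0.00567), Usp2 of -0.37 (SE 0.12, adjusted p = 0.0268) and Dbp of -0.63 (SE 0.22, adjusted p = 0.0362). Without HF replicate 3 of batch 1, Rora (-0.67, adjusted p = 0.00553) and Dbp (-0.38, adjusted p = 0.0215) remained called, and Usp2 (-0.26, adjusted p = 0.0976) did not. Of all genes 5.04% were then called lower. Markers of fibroblasts and smooth muscle moved in the same direction in this joint fit. All 4 markers of fibroblasts had lower values in HF mice (median log2 fold change -0.86), and Pdgfra passed the thresholds (-1.2, adjusted p = 0.0445) but not without HF replicate 3 of batch 1 (-0.97, adjusted p = 0.107). All 3 markers of smooth muscle had lower values (median -1.27), none past the thresholds. In batch 1 alone, 3 of 4 markers of fibroblasts (median -0.22) but 1 of 3 of smooth muscle (median 0.19) had lower values in HF mice. The part of either list in the results for Rora, Usp2 and Dbp was not tested. Within batches, Dbp and Usp2 had their calls in neither, and the value for Usp2 in batch 2 was -0.08. The call of Dbp was also lost without LF replicate 1, 2 or 3 or HF replicate 1 of batch 1 or LF replicate 4 of batch 2 (largest adjusted p = 0.0786). The call of Usp2 was also lost in voom with sample weights (-0.25, adjusted p = 0.0990), and in edgeR without LF replicate 2 or 4 or HF replicate 1 of batch 1, or HF replicate 3 of batch 2. Ciart (-0.33, SE 0.17, adjusted p = 0.143), Tef (-0.15, SE 0.10) and Bhlhe40 (-0.13, SE 0.08) did not pass, nor did Nfil3 (-0.01, SE 0.19), Bhlhe41 (0.34, SE 0.33) and Hlf (-0.00, SE 0.41). Without HF replicate 3 of batch 1 the values were -0.19 for Ciart, -0.070 for Tef, -0.052 for Bhlhe40, -0.037 for Nfil3 and 0.13 for Hlf.

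**Figure D3:**
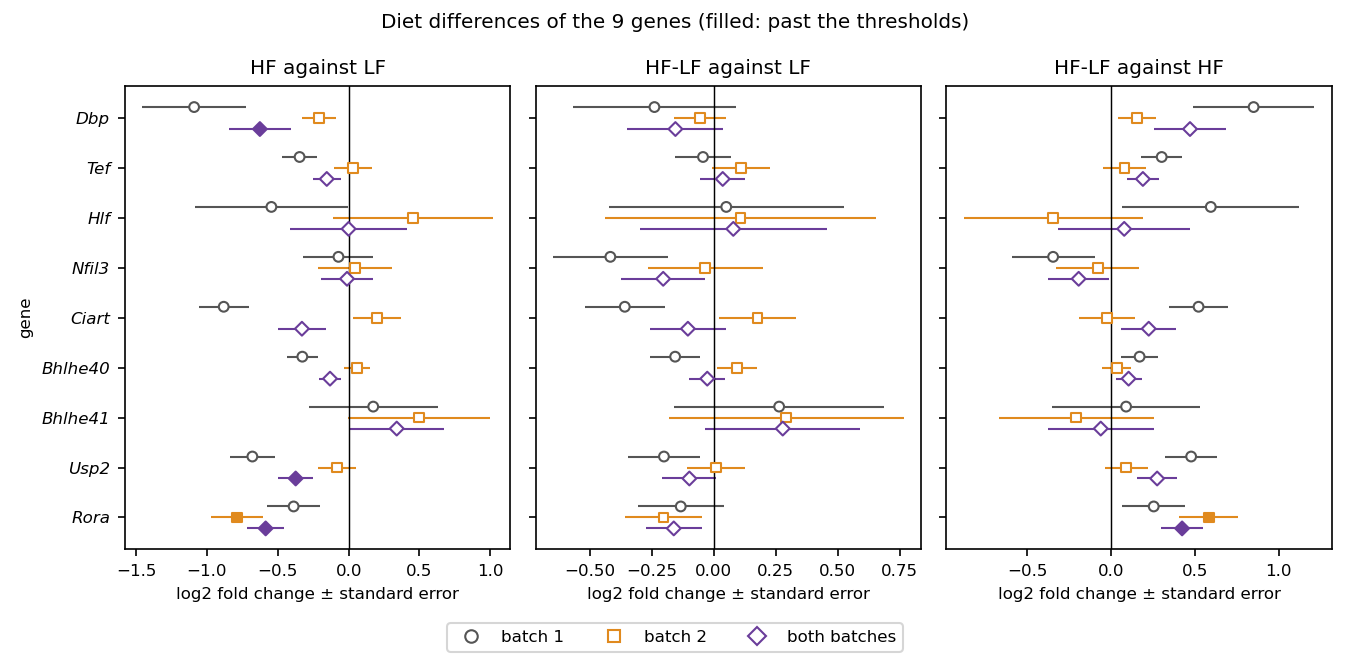
Log2 fold change and standard error of each gene for the 3 comparisons of diets, in batch 1 (circles), batch 2 (squares) and both batches (diamonds); filled symbols passed the thresholds. Rora is filled in batch 2 and in both batches where HF mice are compared, Dbp and Usp2 only in both batches against LF, and no symbol is filled for HF-LF against LF.

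The second comparison set HF-LF mice, which had gone back to the low-fat diet, against LF mice. None of the 9 genes was called in batch 1, batch 2 or both, where edgeR called 0%, 0.00696% and 0% of all genes, and DESeq2 and limma voom called none of the 9 either. At an unadjusted p under 0.05 there was 1 of 9 in batch 1, Ciart, against 5.29% of all genes. In batch 2 and in both batches there were 0 of 9, against 4.65% and 4.11%. Ciart had 14.3, 15.4, 19.03 and 19.8 CPM in HF-LF mice of batch 1, overlapping with LF mice (-0.36, SE 0.16, adjusted p = 0.792). Dbp was at 107, 112, 111 and 116 CPM in HF-LF mice of batch 1, a narrower range than in either other diet, and its log2 fold change from LF was -0.24 (SE 0.33). In batch 2 Dbp was at 77.4 to 103 CPM in HF-LF mice (-0.06, SE 0.10). Over both batches the log2 fold change was -0.16 for Dbp (SE 0.19), -0.16 for Rora (SE 0.11), -0.10 for Usp2 (SE 0.11), -0.10 for Ciart (SE 0.15), -0.03 for Bhlhe40 (SE 0.07), 0.04 for Tef (SE 0.09) and -0.20 for Nfil3 (SE 0.17). A p that misses the threshold does not show that the diets gave the same level. The errors leave room for differences larger than these values.

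The third comparison, of HF-LF with HF mice, shares its samples with the other two and adds no independent evidence. In batch 1 no member was called, against 0.00693% of all genes, and 4 of 9 were higher in HF-LF at an unadjusted p under 0.05, against 4.81% of all genes in that direction. These were Dbp (0.85, SE 0.36), Ciart (0.52, SE 0.18), Usp2 (0.48, SE 0.16) and Tef (0.30, SE 0.12), and without HF replicate 3 they were 0.41, 0.35, 0.31 and 0.18, Dbp alone then having an unadjusted p under 0.05 (1.96% of all genes in that direction). The HF-LF samples lay above all HF samples for Dbp and Usp2, as for 3.95% of all genes. In batch 2 Rora was called higher in HF-LF mice, against 8.89% of all genes. It had 3.94, 3.14, 2.5, 3.39 and 2.87 CPM there, all above the HF samples, as for 14.6% of all genes (0.58, SE 0.18, adjusted p = 0.0353). Over both batches Rora was again the 1 member called (0.42, SE 0.13, adjusted p = 0.0290), against 5.44% of all genes called higher. Its call in batch 2 was lost without HF-LF replicate 1 or 4 or any HF replicate, and that in both batches without HF replicate 1 of batch 1 or without HF-LF replicate 1 or 4 or any HF replicate of batch 2. Dbp (0.47, SE 0.21, adjusted p = 0.115) and Usp2 (0.28, SE 0.12, adjusted p = 0.0996) did not pass in both batches, and without HF replicate 3 of batch 1 they were 0.24 and 0.16.

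Other genes of the clock were followed as lists of activators, repressors, receptors, enzymes that modify clock proteins and genes known to cycle in many tissues, 28 genes in all. Between HF and LF mice, 0 of them were called in batch 1 and 1 in batch 2, against 7.44% of all genes there. This was the REV-ERB gene Nr1d1, which was lower in HF mice (log2 fold change -0.61, SE 0.16, adjusted p = 0.0374). Over both batches 6 of 28 were called, a share near the 18.1% of all genes. Of these, 4 were lower in HF mice, against 9.11% of all genes called lower. Of the repressors 3 of 5 were lower in HF mice, Per1 (-0.49, adjusted p = 0.0103), Per3 (-0.53, adjusted p = 0.0137) and Cry2 (-0.40, adjusted p = 0.0107). Nr1d1 was lower as well (-0.69, adjusted p = 0.0113), as 1 of 4 receptors. None of the 4 activators and none of the 6 kinases and ubiquitin ligases was called. Of the 9 genes that cycle in many tissues, 2 were higher in HF mice, Fkbp5 (0.58, adjusted p = 0.0317) and Sgk1 (0.67, adjusted p = 0.0189), the genes that stood out in HF replicate 3 of batch 1. Without that sample neither passed (Fkbp5 0.23, adjusted p = 0.212, and Sgk1 0.47, adjusted p = 0.0773), whereas Per1 (-0.47), Per3 (-0.42), Cry2 (-0.33) and Nr1d1 (-0.54) remained called, against 5.04% of all genes then called lower.

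Between HF-LF and LF mice no gene of these lists was called. Between HF-LF and HF mice 0 of 28 were called in batch 1, against 0.00693% of all genes, and 7 of 28 in batch 2, against 14.5%. The 5 that were higher in HF-LF mice were Nr1d1 (0.79), Per1 (0.62), Per3 (0.61), Cry2 (0.35) and Arntl2 (1.10), a relative of Arntl. Fkbp5 (-0.48) and Sgk1 (-0.78) were lower. Nr1d1 had 88.9, 77.1 and 90.3 CPM in HF mice of batch 2 and 124 to 183 CPM in HF-LF mice, without overlap. Over both batches the same 7 of 28 were called, 5 of them higher in HF-LF mice, against 5.44% of all genes called higher. Without HF replicate 3 of batch 1, Arntl2 and Sgk1 alone remained called, and Per1, Per3, Cry2, Nr1d1 and Fkbp5 did not. Of all genes 1.58% were then called higher and 1.88% lower.

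**Figure D4:**
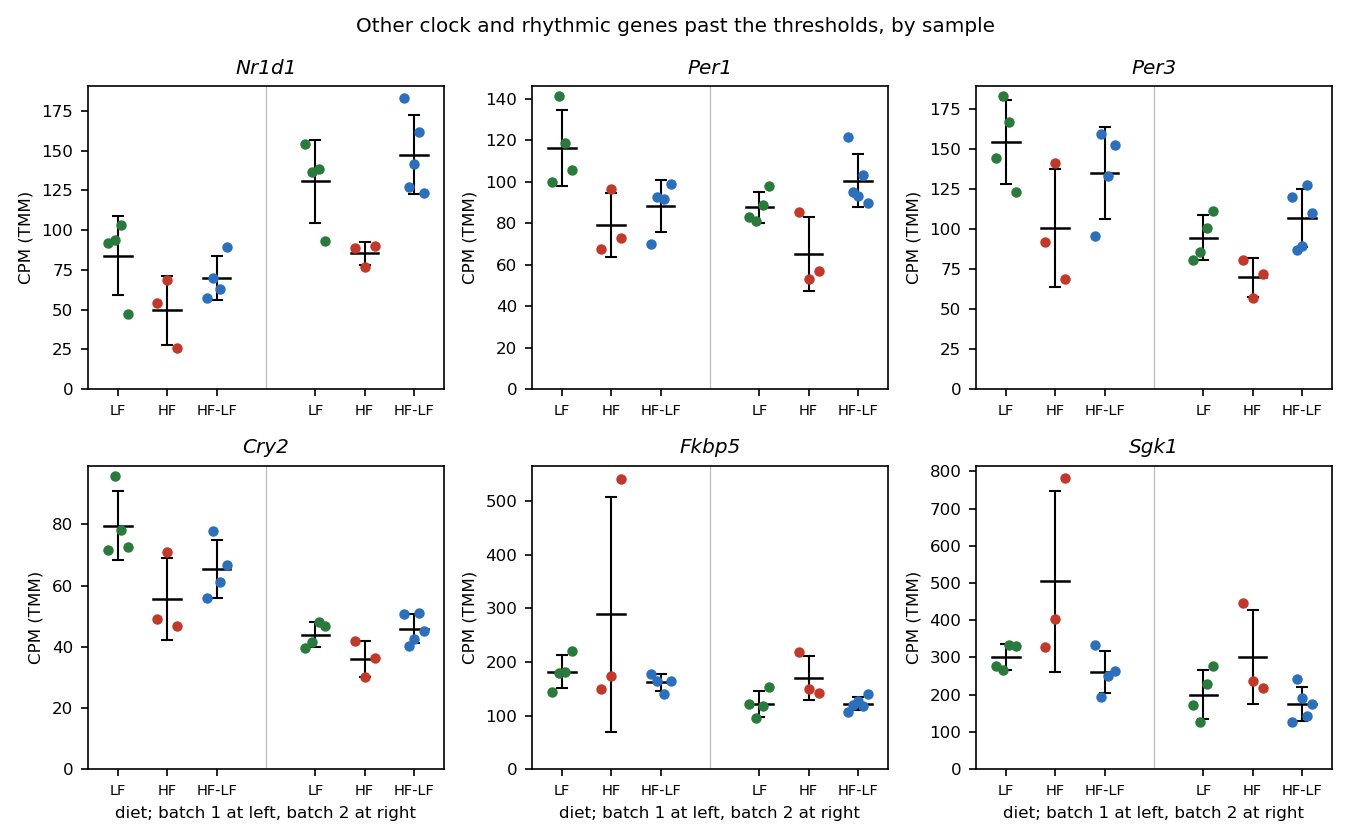
Level (CPM after TMM scaling within a batch) of 6 clock and rhythmic genes in every sample, by diet, with batch 1 at the left and batch 2 at the right of each panel; points are samples, and bars show the mean and SD. Nr1d1 of HF mice lies below all LF mice in batch 2, and HF replicate 3 of batch 1 is the highest point for Fkbp5 and Sgk1.

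Members may also vary together among mice on 1 diet. The deviation of log2 CPM from the diet mean was compared between Dbp and 18 other clock genes, within each batch, with two-sided exact permutation tests that exchange samples within diets, adjusted over 36 relations. In batch 1 (11 samples) Dbp varied with Tef (r = 0.77, exact permutation p = 0.00174, adjusted p = 0.0312; rho = 0.84, p = 0.00637) and with Ciart (r = 0.75, exact permutation p = 0.00318, adjusted p = 0.0328; rho = 0.78, p = 0.0110). In batch 2 (12 samples) it varied with Ciart (r = 0.87, exact permutation p = 0.000405, adjusted p = 0.0146; rho = 0.73, p = 0.00689) and with Tef (r = 0.85, exact permutation p = 0.00365, adjusted p = 0.0328; rho = 0.76, p = 0.0119). Nr1d2 in batch 1 (r = 0.66, exact permutation adjusted p = 0.0417) completed the 5 of 36 relations that passed by Pearson's r. Arntl in batch 2 (r = -0.75) lay on the threshold, with an exact permutation adjusted p of 0.05, and did not pass. By Spearman's rho 0 of 36 passed (smallest exact permutation adjusted p = 0.0613). Without the 2 samples whose Dbp lay farthest from the median none passed either, with r = 0.57 for Tef and 0.51 for Ciart in batch 1 and 0.75 and 0.83 in batch 2. These r were all lower than with those samples. The diet means were still those of all samples, so the 2 left out kept a part in the deviations of the rest. Fewer samples also weaken the test, so the lost calls alone do not show how far the relations rest on them.

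**Figure D5:**
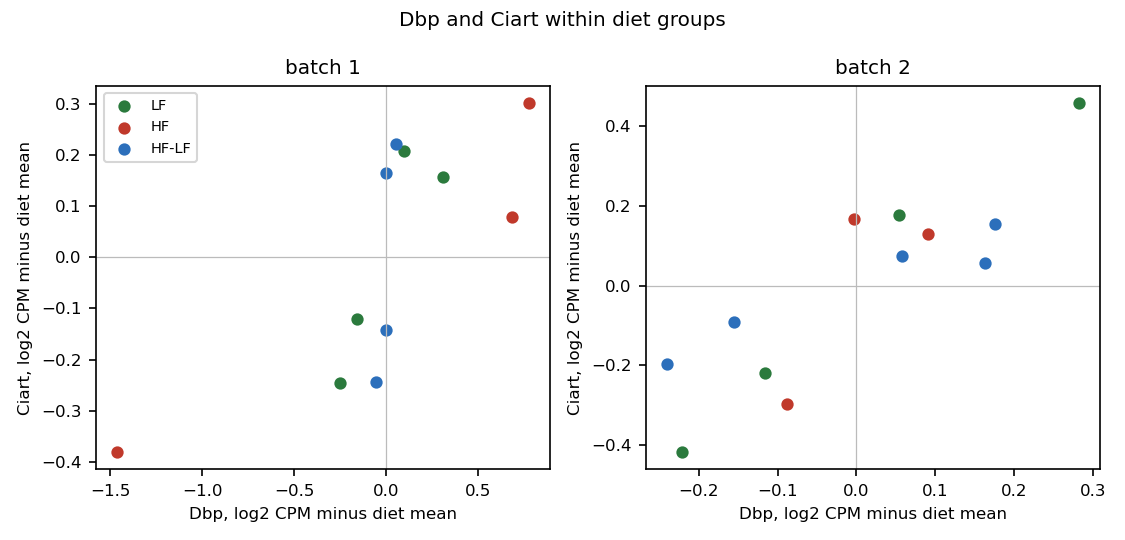
Deviation of Ciart from its diet mean against that of Dbp, both in log2 CPM, in batch 1 (11 samples) and batch 2 (12 samples), with points coloured by diet. In batch 1 HF replicate 3 lies far to the left, and in batch 2 the points rise together over a narrower range of Dbp (r = 0.87).

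Over all 23 samples, the genes whose log2 CPM (centred in each batch) was most like that of Dbp among 12411 genes were Kcnf1 (r = 0.92), Ano1, Rps16, Kcnk5 and Spint2. Those most opposite were Asns (r = -0.92), Aldh18a1 and Igsf5. Within batch 2 alone the r was 0.81 for Kcnf1, 0.35 for Ano1, -0.02 for Rps16, 0.12 for Kcnk5 and 0.41 for Spint2. It was -0.38 for Asns, -0.44 for Aldh18a1 and -0.39 for Igsf5 there. These values are a description of samples that share diets and batches, and without HF replicate 3 of batch 1 the r of Kcnf1 was 0.77, that of Rps16 0.47 and that of Asns -0.61. For Nfil3 the most like were Cpsf4 (r = 0.74), Sync, Ehbp1l1, Smox and 6330416G13Rik, and the most opposite Rgs17 (r = -0.75), Trib2 and Mfsd9, where that sample changed little (Cpsf4 0.73, Rgs17 -0.76).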

How the data were processed

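Total RNA depleted of ribosomal RNA was sequenced from colonic epithelium of 23 samples, in 2 labelled batches. By the methods, the authors kept read pairs of sufficient base quality, removed adaptors with cutadapt 1.2.1, mapped to mm10 with STAR 2.5 and counted reads per gene with featureCounts 1.5.0-p1, versions as in the submitters' processing notes; the handling of strand and of reads with several hits is not given in the sources used here. The deposited values are raw counts per gene locus, and the authors used DESeq2 for their own comparisons.

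The tests used edgeR 4.0.16 under R 4.3.3 (TMM scaling, filterByExpr, quasi-likelihood F test, 3 diets in 1 fit), in each batch and in both with batch as covariate, which left 14428, 14377 and 14385 genes. A call needed a fold change above 1.2 and a p under 0.05 after Benjamini-Hochberg adjustment. All 9 members passed the filter. An SE is the fold change divided by the root of F. The steps were tested on simulated data. Log2 CPM for relations between genes used an offset of 0.05 CPM, and genes like a member needed a mean of at least 1 CPM. The named genes are all members, clock genes of fixed lists when called, and the genes most like Dbp and Nfil3. Members and lists were chosen with earlier results of these data known.

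Alternatives were DESeq2 1.42.0, limma 3.58.1 voom with sample weights, other size factors, no filter, only the 2 diets compared, a replicate block, duplicateCorrelation across batches, and leaving out each sample; the batch interaction, clock lists, markers and member counts without HF replicate 3 of batch 1 were added after seeing the data. Same-numbered samples were checked for shared deviations: their correlations lay between -0.38 and 0.39. Every pair exceeded 0.1 for HF-LF with HF mice of batch 1 alone (0.11 to 0.38), where the block changed no call of a member. No 2 libraries of a group agreed within sampling noise.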

Additional observations from a re-analysis of the deposited data

Results flagged for a closer look

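Each member was examined in each diet group of 4 or 5 samples, 36 groups in all, for a sample set apart from the rest by Dixon's test, which chance flags in about 1 group in 20. Bhlhe40 was lowest in LF replicate 1 of batch 2, at 198 CPM, against 252 to 261 CPM in the other samples of its group. Usp2 was highest in HF-LF replicate 1 of batch 2, at 47.3 CPM, against 37.7 to 40.4 CPM. Bhlhe41 was highest in the same sample, at 0.581 CPM, against 0.151 to 0.266 CPM, values that rest on 5 to 19 reads. The HF groups hold 3 samples and were not examined in this way.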

How the results depend on the processing

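With 9 members, 3 comparisons and 3 sets of samples, 470 of the 506 values computed under an alternative other than leaving out a sample kept their direction and their side of the thresholds. Between HF and LF mice of batch 1 edgeR called 0 members, DESeq2 called 2, voom with sample weights 6 and the replicate block 1 (Usp2), and over all genes these called 0, 479, 2422 and 92. Between HF and LF mice over both batches the fit of only these 2 diets left 1 member (Rora) in place of 3, and voom with sample weights left 2 (Rora and Dbp). Over all genes these fits called 1144 of 14096 and 1332 of 14385 lower. Between HF-LF and HF mice over both batches duplicateCorrelation called 2 members in place of 1, and 1036 of 14385 genes higher. Leaving out 1 sample gave 0 to 4 members between HF and LF mice in batch 1, 0 to 1 in batch 2 and 1 to 3 in both, 0 to 1 between HF-LF and HF mice in batch 2 and in both, and 0 between HF-LF and LF mice. Of the 5 relations of Dbp, 0 held by Spearman's rho and 0 without the 2 farthest samples, with the diet means of all samples kept. In batch 2 genes called between HF and LF mice rose from 1069 to 1853 with DESeq2, 1991 with voom and 2080 with the replicate block. Over all genes, leaving out 1 sample gave 0 to 1352 calls between HF and LF mice in batch 1 (1352 without HF replicate 2), 15 to 2560 in batch 2 (15 without HF replicate 2 and 2560 without LF replicate 4) and 1591 to 3703 in both, and between HF-LF and HF mice 11 to 2778 in batch 2 and 501 to 2669 in both. Apart from the counts given here, the replicate block changed no call of a member. The cause of these changes was not tested.

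These values turned sign under an alternative, none of them past the thresholds on either side. With voom with sample weights the sign turned to -0.080 for Hlf (HF-LF and LF, batch 1), -0.34 for Bhlhe41 (HF-LF and HF, batch 1), -0.16 for Nfil3 (HF and LF, batch 2), -0.47 for Hlf (HF-LF and LF, batch 2), 0.094 for Nfil3 and 0.083 for Ciart (HF-LF and HF, batch 2), 0.24 for Hlf (HF and LF, both batches), -0.35 for Hlf (HF-LF and LF, both batches) and -0.59 for Hlf and 0.035 for Nfil3 (HF-LF and HF, both batches). With DESeq2 size factors in edgeR the sign turned to 0.0063 for Hlf (HF and LF, both batches). With no expression filter the sign turned to 0.0073 for Hlf and 0.0021 for Nfil3 (HF and LF, both batches). With the replicate block the sign turned to -0.11 for Nfil3 (HF and LF, batch 2), 0.047 for Nfil3 (HF-LF and LF, batch 2), -0.026 for Tef, 0.16 for Nfil3 and 0.025 for Bhlhe41 (HF-LF and HF, batch 2), 0.021 for Hlf (HF and LF, both batches) and 0.020 for Bhlhe41 (HF-LF and HF, both batches). With duplicateCorrelation the sign turned to 0.025 for Hlf (HF and LF, both batches), -0.20 for Hlf (HF-LF and LF, both batches) and -0.22 for Hlf (HF-LF and HF, both batches). Leaving out 1 sample also turned signs in 70 of 828 cases, where the log2 fold changes ran as follows. Between HF and LF mice in batch 2 they ran from -0.025 to 0.13 for Bhlhe40, -0.12 to 0.31 for Nfil3, -0.073 to 0.18 for Tef and -0.24 to 0.027 for Usp2. Between HF-LF and HF mice in batch 2 they ran from -0.036 to 0.094 for Bhlhe40, -0.60 to 0.014 for Bhlhe41, -0.16 to 0.060 for Ciart, -0.34 to 0.089 for Nfil3 and -0.020 to 0.25 for Usp2. Between HF-LF and LF mice over both batches they ran from -0.086 to 0.0029 for Bhlhe40, -0.11 to 0.32 for Hlf and -0.030 to 0.089 for Tef. Between HF and LF mice in batch 1 they ran from -0.056 to 0.36 for Bhlhe41 and -0.16 to 0.084 for Nfil3. Between HF-LF and HF mice in batch 1 they ran from -0.28 to 0.28 for Bhlhe41. Between HF-LF and HF mice over both batches they ran from -0.25 to 0.056 for Bhlhe41 and -0.13 to 0.28 for Hlf. Between HF-LF and LF mice in batch 1 they ran from -0.11 to 0.46 for Bhlhe41, -0.18 to 0.56 for Hlf and -0.097 to 0.024 for Tef. Between HF-LF and LF mice in batch 2 they ran from -0.099 to 0.56 for Bhlhe41, -0.13 to 0.047 for Dbp, -0.36 to 0.39 for Hlf, -0.16 to 0.16 for Nfil3 and -0.093 to 0.096 for Usp2. Between HF and LF mice over both batches they ran from -0.19 to 0.25 for Hlf and -0.071 to 0.11 for Nfil3.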
